A study of Mus musculus with 9 samples.

Results

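Complement is a system of plasma and cell-surface proteins that marks microbes and injured cells for removal, and 9 of its genes were followed here in mouse lungs injured with lipopolysaccharide (LPS). They are C1qa, C1qb, C1qc, C4b, C3, Cfb, Hc, C3ar1 and C5ar1, chosen by symbol from the 52381 genes of the deposited table. Each of the 9 symbols matched 1 row, and all 9 passed the filter for testing, 1 FPKM or more in no fewer than 4 libraries. FPKM is the number of fragments per kilobase of gene, scaled to the mapped total of the library, so levels of different genes can be set side by side.

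RNA was sequenced from lung tissue of 9 mice, 1 library each. All 9 mice had acute lung injury (ALI) caused by LPS, a component of the outer membrane of Gram-negative bacteria. The 4 mice called LPS-ALI had the injury alone, and the 5 called TMAO had the injury and were treated with trimethylamine N-oxide (TMAO), a compound made from the products of gut bacteria. Strain, age, sex, doses, times and the route of LPS are not stated by the labels, and lungs of uninjured mice are not analysed here.

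The complement cascade can be started by C1q, a protein built from the products of C1qa, C1qb and C1qc that binds antibody and damaged surfaces and leads to cleavage of C4. A further start, the alternative pathway, uses factor B, the product of Cfb. Both routes cleave C3, the central component, and then C5, which mice encode in the gene Hc. The small fragments C3a and C5a act on the receptors encoded by C3ar1 and C5ar1, which are found mainly on myeloid cells. The liver makes most of the complement in plasma, while macrophages make much of the C1q, and lung epithelium also makes C3 and C5.

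Estimated from the spacing of low values, the libraries held about 4920000 to 12470000 reads assigned to genes, with TMAO replicate 5 the shallowest. In TMAO replicate 5, 8846 genes reached 1 FPKM, and in the remaining libraries 11158 to 12239 did. The median tested gene of TMAO replicate 5 stood at 1.74 in log2(FPKM + 1), against 2.74 to 3.35 elsewhere. Low FPKM in that library are therefore not particular to complement genes. Relative to the median tested gene, TMAO replicate 5 was the highest of the 9 libraries for C1qb and C3ar1 and the lowest for Cfb. The median correlation with the other libraries was 0.890 for LPS-ALI replicate 4 and 0.895 for TMAO replicate 5, against 0.929 to 0.966 for the rest. LPS-ALI replicates 3 and 4 carry library codes that start with X, whereas the 7 remaining codes start with B. What the letters mean is not stated by the labels, and no TMAO library has an X code. The wording of the extraction protocol names platelets, while the labels name lung. The score of 8 alveolar type 2 markers, their mean log2 level above the median tested gene of the library, was 2.35 to 5.50 in all 9 libraries. That of platelet markers was -1.22 to 0.30.

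To show what lies upstream of the start sites, promoter stretches are printed for 1 gene of each of 3 roles: C3 as the central component, Hc as the gene whose level varied most between libraries, and C1qb for the recognition molecule. RefSeq (GRCm38.p6) promoter sequences were found for 6 of the 9 genes. Each printed stretch is 220 bases and runs from 250 to 31 bases before the RefSeq start, on the minus strand of the chromosome, on which all 3 genes lie. Capitals mark matches on either strand to the C/EBP pattern TTNNGNAA or the TATA pattern TATAAA.
C3, chr17:57228167-57228386: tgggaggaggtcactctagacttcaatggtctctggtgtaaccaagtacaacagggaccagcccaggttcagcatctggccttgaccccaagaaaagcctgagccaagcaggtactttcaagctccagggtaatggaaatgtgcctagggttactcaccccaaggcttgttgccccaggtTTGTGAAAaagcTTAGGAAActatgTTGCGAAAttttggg
Hc, chr2:35061443-35061662: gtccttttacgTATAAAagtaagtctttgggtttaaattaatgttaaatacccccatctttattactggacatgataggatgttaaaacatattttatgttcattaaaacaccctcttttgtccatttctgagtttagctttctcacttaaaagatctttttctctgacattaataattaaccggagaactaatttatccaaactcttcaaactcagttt
C1qb, chr4:136886231-136886450: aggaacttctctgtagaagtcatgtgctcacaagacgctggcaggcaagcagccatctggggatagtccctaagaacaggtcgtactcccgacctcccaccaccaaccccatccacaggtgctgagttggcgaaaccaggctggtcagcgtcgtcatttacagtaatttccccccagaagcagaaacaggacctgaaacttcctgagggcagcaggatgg
The C3 stretch held 3 matches to the C/EBP pattern, TTGTGAAA, TTAGGAAA and TTGCGAAA, and the last of these matches on both strands. At least 1 such match was present in 34.2% of the 32851 promoter stretches of the same length. The Hc stretch held 1 TATAAA, near its end farthest from the start site, and 9.95% of the stretches hold that pattern. In G and C content the Hc stretch had 29.5%, against 50.0% for C3 and 55.0% for C1qb. The C1qb stretch held neither pattern. Bases closer to the start than 31 were not searched, so a match there would be missed in any of the 3 genes. Matches to the NF-kB pattern, to the GAS pattern TTCNNNGAA and to the PU.1 core GAGGAA were in none of the 3 printed stretches. Those patterns were in 6.34%, 6.27% and 20.4% of all stretches. A match is a run of letters and says nothing about binding.

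By mean level, the 9 genes ran from C3 down to C3ar1, which stood well below the rest. C3 had the highest mean, 182 FPKM over all 9 libraries, and ranked 358 of 11817 tested genes. Cfb followed with 94.7 and Hc with 56.5, and then came C4b with 32.8, C1qa with 28.8, C1qb with 25.4, C1qc with 21.1 and C5ar1 with 14.3. C3ar1 was lowest at 1.11 FPKM and ranked 11366. C3 was above Cfb in 8 of 9 libraries, Cfb above Hc in 9 and Hc above C4b in 7. C4b and C1qa could not be ordered, with C4b the higher in 4 of 9 libraries. C1qa was above C1qb in 6 of 9, C1qb above C1qc in 8, C1qc above C5ar1 in 9 and C5ar1 above C3ar1 in 9. Hepatocyte markers were near 0 beside these levels: 0 of 7 passed the filter, none was at 0 in all libraries, and Alb (albumin) was 0 to 1.2 FPKM. The 7 together summed to 0.80 to 1.54 FPKM across LPS-ALI lungs, against 0.92 to 5.81 with TMAO. The sum of 5.81 was that of TMAO replicate 5, the shallowest library, where Cyp2e1 (2.67) and Alb (1.2) were also highest.

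**Figure D1:**
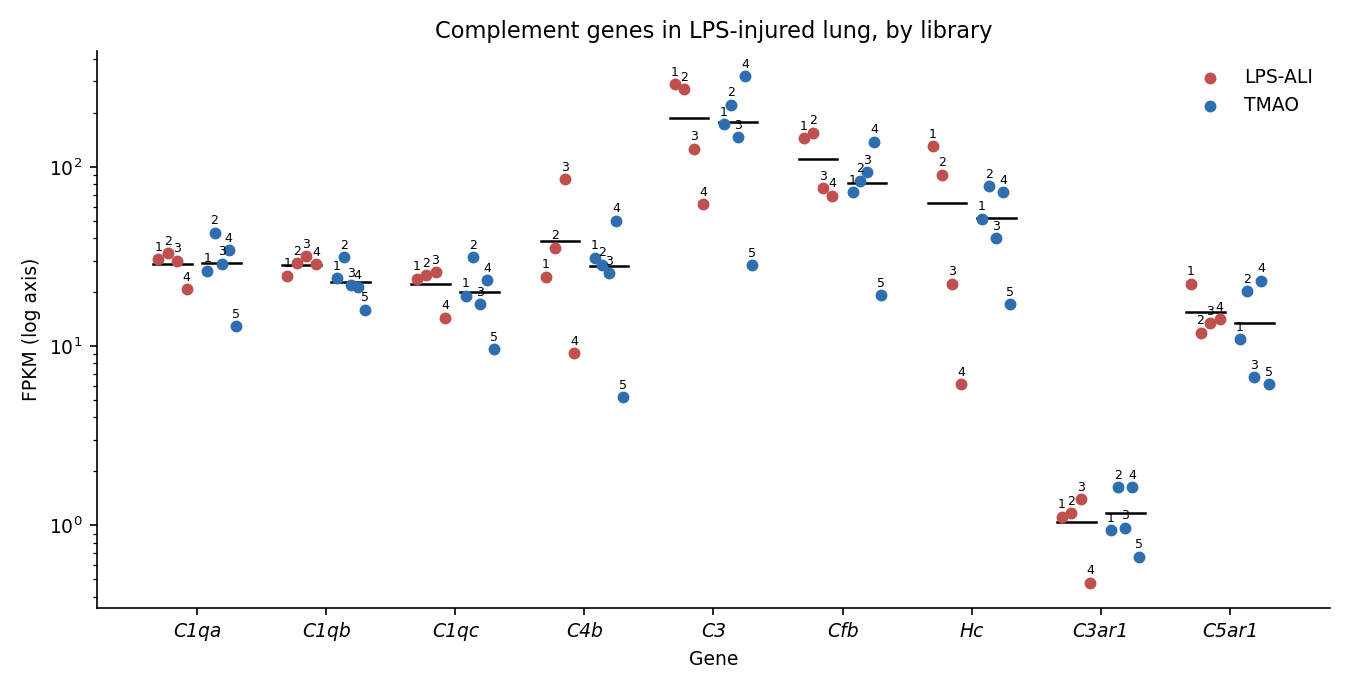
FPKM of the 9 complement genes on a log axis, with 1 point for each library (LPS-ALI red, n = 4; TMAO blue, n = 5), the replicate number beside each point and a black line at the group mean. The 2 groups overlap for every gene, and LPS-ALI replicate 4 is low for Hc, C4b and C3. TMAO replicate 5, the library with the lowest median tested gene, has the lowest FPKM of the TMAO libraries for each gene.

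The groups were compared because the study asked what TMAO does in this injury. By limma, none of the 9 genes reached the threshold, an adjusted p of 0.05, and for none were the groups free of overlap. In all, 0 of 11817 tested genes passed (0%), 3.35% had an unadjusted p under 0.05, and 1.48% had no overlap between the groups, 1.36% with TMAO lower and 0.118% with TMAO higher. The adjusted p of each of the 9 genes was 0.998 by limma, and their unadjusted p ran from 0.243 for Cfb to 0.883 for C1qa. The log2 difference, TMAO minus LPS-ALI of log2(FPKM + 1), was below 0 for 7 of 9 genes, as it was for 72.1% of all genes tested. Its median was -0.20 over the 9 genes and -0.17 over all genes. Relative to the median gene, 6 of the 9 lay below and 3 above. Under median-of-ratios scaling the median gene lay at -0.01, and without TMAO replicate 5 at 0.05. These p-values set the difference in group means against the spread between libraries, 1 from each mouse. That spread also holds any difference between B- and X-coded libraries and the low levels of TMAO replicate 5. In lung tissue, fewer cells of a type and less RNA per cell cannot be told apart.

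The recognition genes C1qa, C1qb and C1qc lie side by side on chromosome 4 of GRCm38, between 136880129 and 136898803, and encode the 3 chains of C1q. C1qa (ENSMUSG00000036887) had 30.61, 33.02, 29.96 and 20.80 FPKM in LPS-ALI replicates 1 to 4, and 26.30, 42.92, 28.86, 34.20 and 12.88 in TMAO replicates 1 to 5. The TMAO values spanned the whole LPS-ALI range. The means were 28.6 ± 5.36 (SD, n = 4) and 29.0 ± 11.04 (SD, n = 5), a log2 difference of -0.06 ± 0.37 (SE). Its 95% interval ran from -0.84 to 0.73 (limma adjusted p = 0.998).

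C1qb (ENSMUSG00000036905) had 24.74, 28.97, 31.68 and 28.65 FPKM in the 4 lungs with LPS-ALI alone, against 23.91, 31.33, 21.88, 21.25 and 15.95 with TMAO. TMAO replicate 2 lay among the LPS-ALI values and the other TMAO libraries lay below them. The log2 difference was -0.33 ± 0.31 (SE), with an interval of -0.999 to 0.33. C1qc (ENSMUSG00000036896) had 23.82, 24.81, 25.93 and 14.42 FPKM in the 4 lungs with LPS-ALI alone, against 19.14, 31.26, 17.15, 23.36 and 9.63 with TMAO. Here TMAO replicate 2 was the highest library and TMAO replicate 5 the lowest. The log2 difference was -0.20 ± 0.37 (SE), with an interval of -0.99 to 0.60.

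Within a library the 3 chains were at similar levels. The ratio of C1qc to C1qa was 0.594 to 0.865 and that of C1qb to C1qa was 0.621 to 1.38. Ratios within a library do not depend on how libraries are scaled. The C1qb to C1qa ratio was highest in LPS-ALI replicate 4, at 1.38, and TMAO replicate 5, at 1.24, the 2 libraries that stood apart, and 0.621 to 1.06 in the others. The log2 ratio differed by -0.29 between TMAO and LPS-ALI (exact two-sided permutation p = 0.278, adjusted p = 0.278 over the 2 ratios). For C1qc to C1qa the difference was -0.15 (exact two-sided permutation p = 0.143, adjusted p = 0.278). Without the X-coded libraries the C1qb to C1qa difference was -0.03 (exact permutation p = 0.952), and it was -0.14 without LPS-ALI replicate 4, -0.18 without TMAO replicate 4 and -0.43 without TMAO replicate 5. The C1qc to C1qa difference was -0.09 without LPS-ALI replicate 3 and also without TMAO replicate 3.

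C1q levels were set beside macrophage markers, since macrophages are a main source of C1q. Of 9 macrophage markers 8 were tested, and the 9 together summed to 73.3 to 98.8 FPKM across LPS-ALI lungs, against 27.7 to 114 with TMAO. Lgmn, a lysosomal protease gene, was the most abundant at 8.68 to 56.87, and no marker was at 0 in all libraries. The macrophage score was -0.18 to 0.24 across LPS-ALI lungs, against -0.12 to 0.06 with TMAO. Across the 9 libraries C1qc went with this score at r = 0.85 (rho = 0.82), and at r = 0.77 without LPS-ALI replicate 4 and TMAO replicate 5. For C1qa r was 0.66 and for C1qb 0.55, and these are descriptions of 9 points that share the scale of their library. With the score of alveolar macrophage markers r was 0.54 for C1qb, -0.40 for C1qa and -0.29 for C1qc. Without those 2 libraries these values were 0.87, 0.69 and 0.70, so the sign for C1qa and C1qc rests on them. Scores of other cell types came close or went higher. C1qc had r = 0.74 with neutrophil markers, C1qa 0.73 with alveolar type 2 markers and C1qb 0.62 with monocyte markers. Without the same 2 libraries these were 0.70, 0.13 and 0.66, while with the macrophage score C1qa had 0.43 and C1qb 0.80. The part of macrophage number, or of any other cell type, in the C1q levels was not tested.

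C4b (ENSMUSG00000073418) encodes complement C4, which is cleaved after C1q or lectins bind. The gene lies on chromosome 17 from 34728380 to 34743882. It had 24.44, 35.37, 85.70 and 9.17 FPKM in the 4 lungs with LPS-ALI alone, against 31.13, 28.45, 25.49, 50.20 and 5.21 with TMAO. The X-coded LPS-ALI replicates 3 and 4 held the highest and the lowest value of their group, and the TMAO values lay within or below that range. The log2 difference was -0.32 ± 0.62 (SE), with an interval of -1.65 to 0.9997 (limma adjusted p = 0.998). Dropping LPS-ALI replicate 3 gave 0.19 and dropping TMAO replicate 5 gave 0.16, so its direction rests on single libraries. C4a, a near-identical neighbour, was listed at 0 to 1.2 FPKM, and reads of the 2 genes may have been split between them by the authors' counting.

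C3 (ENSMUSG00000024164), on chromosome 17 from 57203970 to 57228136, had 288.46, 271.17, 126.38 and 61.66 FPKM in LPS-ALI replicates 1 to 4. In TMAO replicates 1 to 5 it had 172.33, 222.08, 146.01, 320.94 and 28.26 FPKM. The B-coded LPS-ALI libraries were high and the X-coded ones low, and the TMAO lungs spread over and beyond that whole range. The means were 187 ± 111 (SD, n = 4) and 178 ± 107 (SD, n = 5), with a log2 difference of -0.18 ± 0.61 (SE) and an interval of -1.48 to 1.12 (limma adjusted p = 0.998). Leaving out the X-coded libraries gave -1.005, and leaving out TMAO replicate 5 gave 0.39. Without LPS-ALI replicate 1 or 2 it was 0.11 or 0.08.

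Cfb (ENSMUSG00000090231) encodes factor B, the serine protease of the alternative pathway C3 convertase, and lies on chromosome 17 from 34856374 to 34862518. It had 145.11, 154.97, 75.74 and 68.95 FPKM in the 4 lungs with LPS-ALI alone, against 72.32, 83.80, 93.79, 138.22 and 19.24 with TMAO. As with C3, both B-coded LPS-ALI libraries lay above both X-coded ones. The log2 difference of -0.59 ± 0.49 (SE), with an interval of -1.63 to 0.45, had an adjusted p of 0.998 by limma. It was below 0 under all 26 alternatives, from -1.11 to -0.14, with the lowest adjusted p, 0.178 by limma, under library weights. Some of these could not move it from -0.59: other gene filters, no variance trend, robust variance estimates and summing rows that share a symbol. The value of -0.14 came without TMAO replicate 5 and that of -1.11 without the X-coded libraries. C5ar1 was also below 0 under all 26 alternatives and C1qb under 25. With all 9 libraries, 72.1% of all genes tested were below 0, and the share below 0 under every alternative was not counted. Relative to the median gene, the alternatives gave -0.89 to -0.19 for Cfb, -0.28 to 0.05 for C5ar1 and -0.31 to 0.03 for C1qb. The ratio of Cfb to C3 within a library was 0.377 to 0.681 in the TMAO lungs and 0.503 to 0.599 in LPS-ALI replicates 1 to 3. LPS-ALI replicate 4 was the only library with more Cfb than C3, at a ratio of 1.12.

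Hc (ENSMUSG00000026874) encodes C5, whose cleavage releases C5a and starts the membrane attack complex. The gene lies on chromosome 2 from 34983331 to 35061438. It had 130.97, 90.59, 22.35 and 6.12 FPKM in the 4 lungs with LPS-ALI alone, against 51.50, 77.77, 40.02, 71.98 and 17.19 with TMAO. The highest library was 21.4 times the lowest, the widest span of the 9 genes, and both ends were LPS-ALI libraries. The mean FPKM was higher with LPS-ALI alone, 62.5 ± 58.5 (SD, n = 4) against 51.7 ± 24.6 (SD, n = 5), while the mean on the log2 scale was higher with TMAO. That log2 difference was 0.31 ± 0.70 (SE), with an interval of -1.19 to 1.82 (limma adjusted p = 0.998). Without LPS-ALI replicate 4 it was -0.49, with library weights -0.53, and without LPS-ALI replicate 4 and TMAO replicate 5 together -0.15.

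Without the X-coded libraries, Hc and Cfb were the 2 of 9 genes whose TMAO values all lay below the remaining LPS-ALI values. Of all genes tested in that setting, 5.98% did so. The alveolar type 2 score did so too, at 5.50 and 5.34 in LPS-ALI replicates 1 and 2 and 4.46 to 5.11 with TMAO. The log2 difference of Hc was then -1.23, with an interval of -2.36 to -0.10 (limma adjusted p = 0.9997). Hc was also the 1 of 9 genes with an unadjusted limma p under 0.05, at 0.0351. An unadjusted p under 0.05 with a lower TMAO mean was found for 1.26% of genes there. Only 2 LPS-ALI libraries remain in this setting, and the median gene stood at -0.22. With median-of-ratios scaling as well, a setting added after the data were seen, Hc was at -0.95 and Cfb at -0.83, with unadjusted limma p-values of 0.00380 and 0.0159 and an adjusted p of 0.9997 for both. In that setting 2.70% of all genes tested had an unadjusted p under 0.05 with a lower TMAO mean.

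**Figure D2:**
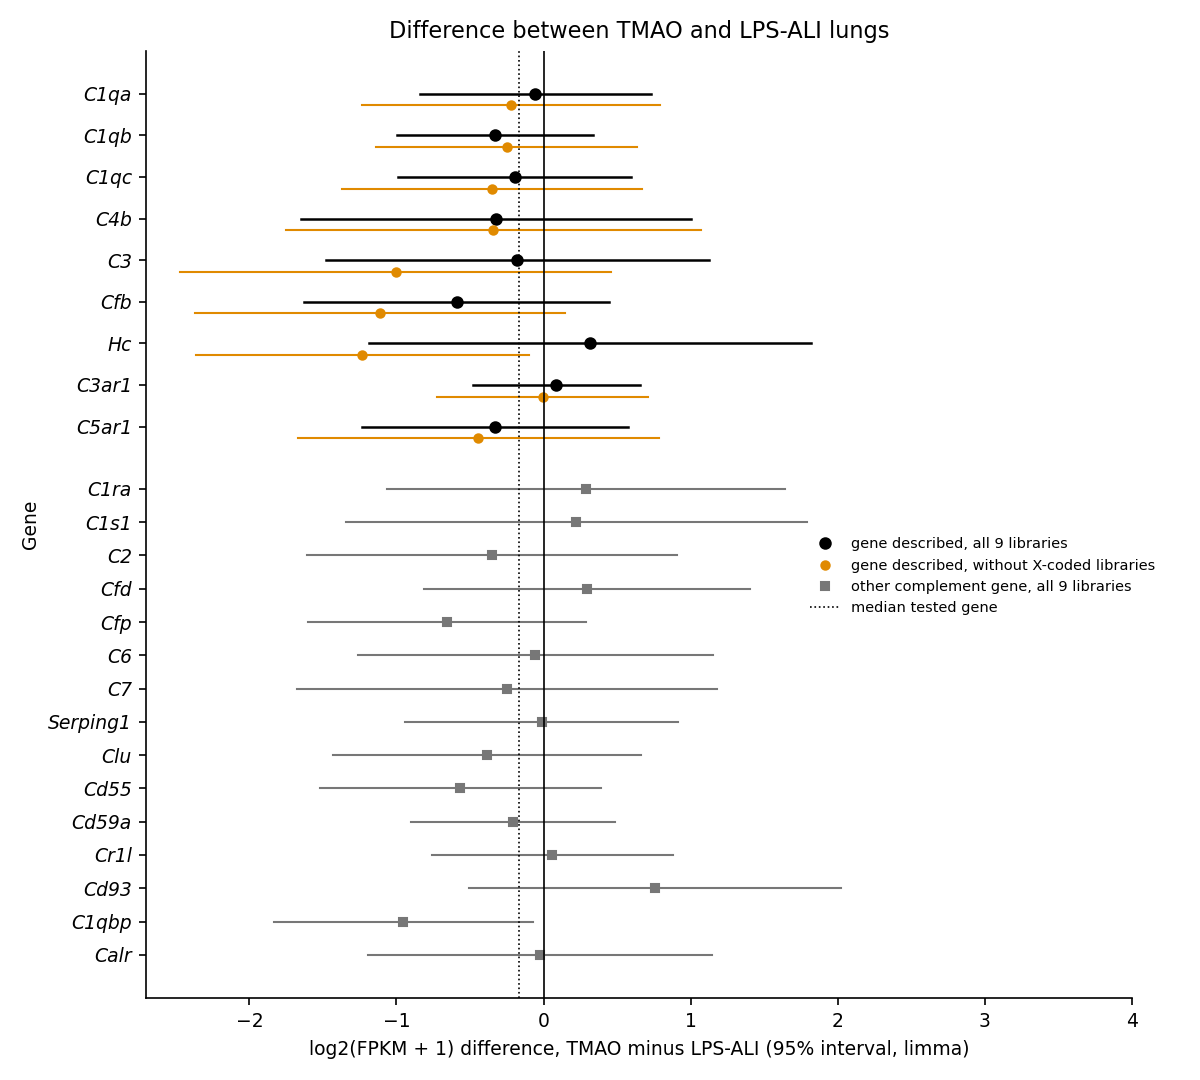
Log2(FPKM + 1) difference, TMAO minus LPS-ALI, with the 95% interval from limma, for the 9 genes with all 9 libraries (black) and without the X-coded libraries (orange), and for other complement genes (grey). All black intervals include 0, the orange point of Hc lies at -1.23 while its black point lies at 0.31, and the dotted line marks the median tested gene.

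Hc levels went with markers of alveolar type 2 cells, the surfactant-making cells of the alveolus. All 8 of these markers were tested and none was at 0 in all libraries. Their summed FPKM was 1125 to 14290.4 across LPS-ALI lungs, against 4836 to 10646 with TMAO, with Sftpc the most abundant at 709.7 to 9808.57. The score was 5.50 and 5.34 in LPS-ALI replicates 1 and 2, 4.51 in LPS-ALI replicate 3 and 4.46 to 5.11 with TMAO. It was lowest in LPS-ALI replicate 4, at 2.35. That library stood apart in other markers too: Hbb-bs, a red cell globin gene, had 1005.59 FPKM there and 47.15 to 106.85 elsewhere, and Foxj1, of ciliated cells, had 21.32 and at most 5.04 elsewhere. Relative to the median gene of the library, Hc was -0.14 in LPS-ALI replicate 4, 1.78 in LPS-ALI replicate 3 and 2.45 to 4.00 elsewhere. Across the 9 libraries r was 0.97 and rho 0.97, and r was 0.94 without LPS-ALI replicate 4 and TMAO replicate 5. For C3 r was 0.82 and rho 0.97 (r = 0.86 without these 2 libraries), and for Cfb r was 0.55. C3 had a higher r with the fibroblast score, 0.89, which was 0.47 without the 2 libraries. The endothelial score went with Hc at r = 0.85, but at 0.46 without the 2 libraries, and the fibroblast score at 0.78 and 0.06. There were also negative values. Hc went with the red cell and the alveolar macrophage scores at r = -0.89 each, and at -0.59 and -0.61 without the 2 libraries. The r of Hc with the alveolar type 2 score was the highest of 108 computed, 12 marker lists for each of 9 genes, and each r describes 9 points. The part of any of these cell types in the Hc and C3 levels was not tested.

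**Figure D3:**
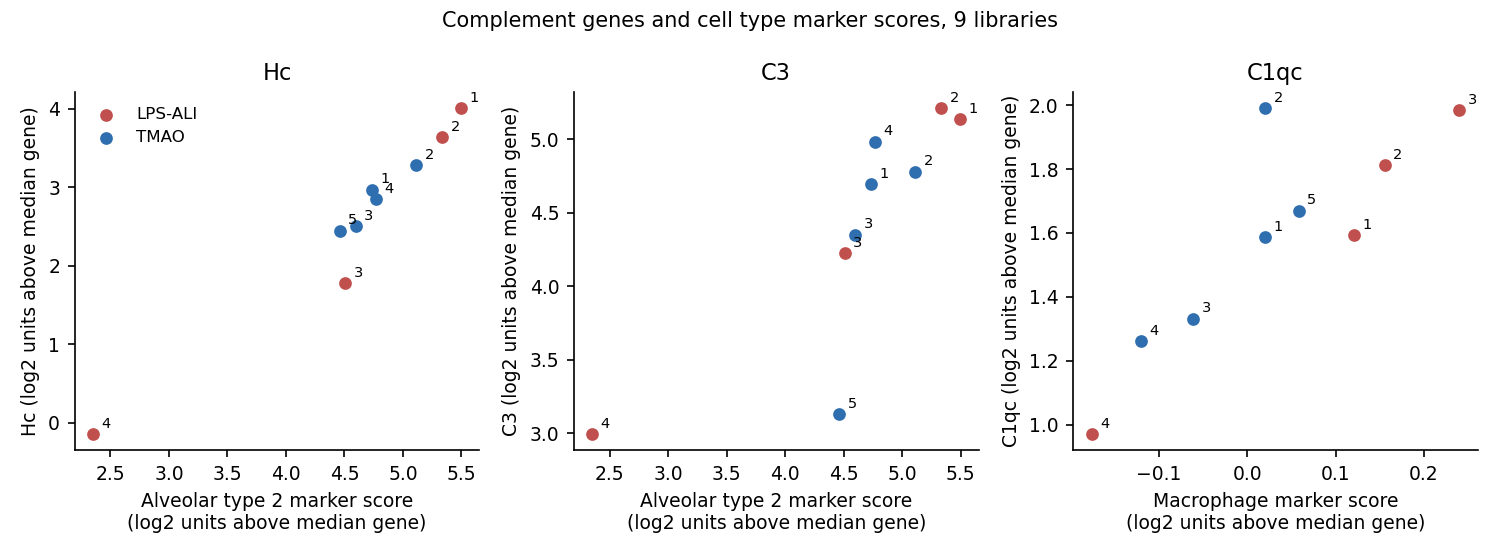
Levels of Hc and C3 against the alveolar type 2 score, and of C1qc against the macrophage score, all in log2 units above the median tested gene, with 1 numbered point for each library (LPS-ALI red, TMAO blue). LPS-ALI replicate 4 is lowest on both axes in all 3 panels, and TMAO replicate 5 has low C3 (3.13) at a score of 4.46.

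The receptor genes stood far apart in level. C5ar1 (ENSMUSG00000049130), for the C5a receptor that draws neutrophils, lies on chromosome 7 from 16246743 to 16259540. It had 22.27, 11.91, 13.39 and 14.14 FPKM in the 4 lungs with LPS-ALI alone, against 10.89, 20.24, 6.69, 23.20 and 6.12 with TMAO. TMAO lungs held both the highest and the lowest value. The log2 difference was -0.33 ± 0.42 (SE), with an interval of -1.23 to 0.57 (limma adjusted p = 0.998). Neutrophil markers, all 8 tested and none at 0 in all libraries, had scores of 3.31 to 4.55 across LPS-ALI lungs, against 3.43 to 4.96 with TMAO, and summed to 7502 to 20624 and 7681 to 14709 FPKM.

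C3ar1 (ENSMUSG00000040552), for the C3a receptor, lies on chromosome 6 from 122847138 to 122856161. It had 1.12, 1.17, 1.40 and 0.48 FPKM in the 4 lungs with LPS-ALI alone, against 0.94, 1.63, 0.97, 1.64 and 0.67 with TMAO. These values rest on an estimated 14 to 75 reads a library, against 716 to 13670 for C3, the fewest of the 9 genes. LPS-ALI replicate 4 was lowest and the groups overlapped. The log2 difference was 0.09 ± 0.27 (SE), with an interval of -0.48 to 0.65 (limma adjusted p = 0.998), and it was -0.06 without LPS-ALI replicate 4.

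C5ar1 exceeded C3ar1 by 6.90 to 29.5 times within a library, with 29.5 in LPS-ALI replicate 4. The log2 ratio differed by -0.56 between TMAO and LPS-ALI (exact two-sided permutation p = 0.222, adjusted p = 0.444 over 2 ratios), and by -0.25 without LPS-ALI replicate 4. The ratio of C3ar1 to C3 was 0.00388 to 0.0111 across LPS-ALI lungs, against 0.00511 to 0.0237 with TMAO. Its log2 difference was 0.37 (exact two-sided permutation p = 0.563, adjusted p = 0.563), and -0.02 without TMAO replicate 5, which had the ratio of 0.0237. It was 0.15 and 0.20 without LPS-ALI replicate 1 and 2, 0.65 without LPS-ALI replicate 3, and 0.96 when both X-coded libraries were dropped. With 4 and 5 libraries and 126 splits, these tests can reach a p no lower than 0.00794.

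**Figure D4:**
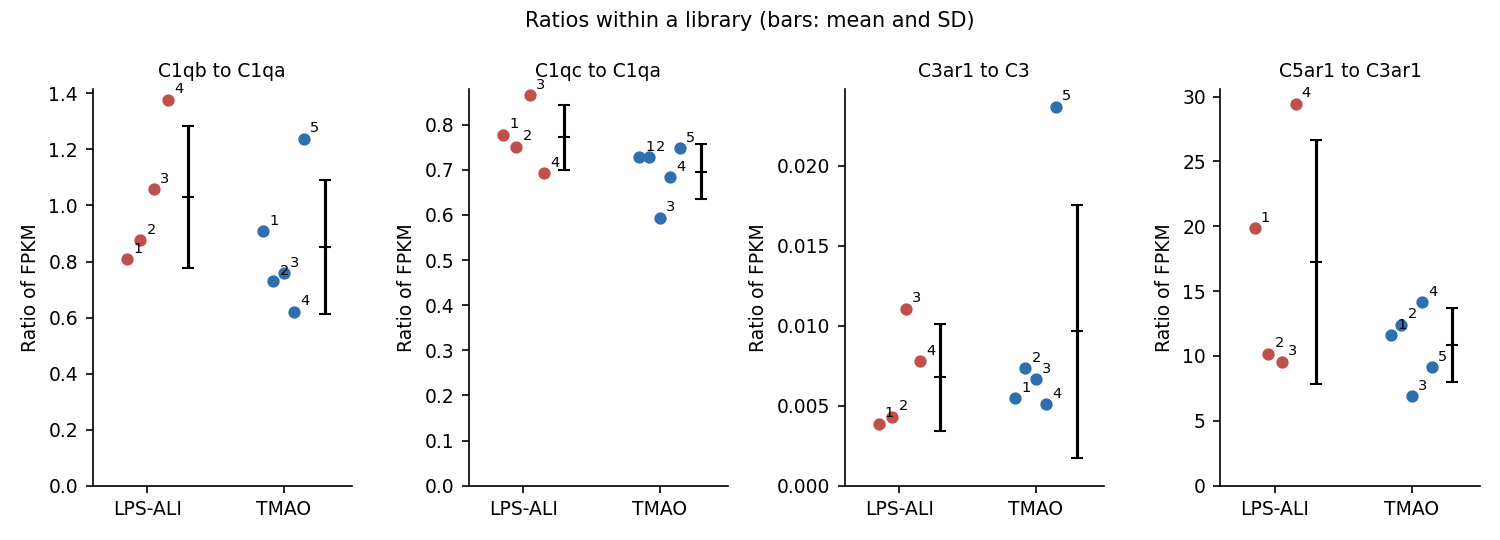
Ratios of FPKM within each library for C1qb to C1qa, C1qc to C1qa, C3ar1 to C3 and C5ar1 to C3ar1, with 1 numbered point for each library, axes from 0, and bars for the mean and SD of LPS-ALI (n = 4) and TMAO (n = 5). The groups overlap in all 4 panels, and TMAO replicate 5 stands alone in the C3ar1 to C3 ratio at 0.0237.

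Among the 36 pairs of the 9 genes, C3 went with Hc at r = 0.82 and with Cfb at 0.84, and C1qa with C1qc at 0.92, over 9 libraries on the scale relative to the median gene. These values were 0.90, 0.71 and 0.85 without LPS-ALI replicate 4 and TMAO replicate 5. C1qb went with C1qa at r = 0.40, and at 0.79 without those 2 libraries, and with C3 at -0.47. C5ar1 had its closest counterpart among the 9 in C1qc, at only r = 0.30. Outside the 9, the genes most like Hc were Egfl6, Ctso and Enpep (r = 0.98 to 0.99), and those most like C4b were Egfl7, Adcy4 and Sec31a (r = 0.97 to 0.99). For C3 they were Ccdc47, Rcsd1 and Ganab, each at r = 0.98, and for Cfb Rhob, Pls3 and Tmem250-ps (r = 0.94 to 0.95). Genes alike to C1qa included Mfsd5 (r = 0.90) and Caml (r = 0.87), and genes alike to C1qc included Ptpn18 (r = 0.87) and Cd300ld (r = 0.86). C1qb was most like CT010467.2, Syn3 and Rpl36al (r = 0.89 to 0.93) and C5ar1 most like Tmcc1, G6pc3 and Stk17b (r = 0.84 to 0.94). For C3ar1 the closest were Acaa2, Crip1 and Grcc10 (r = 0.96 to 0.97), on a scale where a gene near 1 FPKM mostly follows the median of its library. The likeness was sought among genes with a mean FPKM of at least 5. These are the highest r of many genes over 9 points, and such picking itself raises r.

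Of 48 other complement genes, 21 were tested, 0 passed an adjusted p of 0.05 by limma, 1 had an unadjusted p under 0.05, and in 0 were the groups free of overlap. Over all genes tested, 0% passed, 3.35% had an unadjusted p under 0.05 and 1.48% had no overlap between the groups. The log2 differences of the 21 genes were below 0 for 14 and above 0 for 7, with a median of -0.20. Of all genes tested, 72.1% were below 0. Relative to the median gene 11 lay below and 10 above. The 27 genes not tested reached at most 1.55 FPKM, and 7 of them were listed at 0 in all libraries.

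Among the starting proteases of the classical pathway, C1ra and C1s1 had 37.8 ± 27.2 and 41.1 ± 29.7 FPKM (SD, n = 4) in LPS-ALI. In TMAO lungs they had 47.2 ± 28.1 and 51.9 ± 35.9 (SD, n = 5). C2, the protease partner of C4, had 11.3 ± 8.00 and 8.87 ± 6.13 FPKM, and 4 of 15 genes of this role were tested. In the alternative pathway Cfp, for properdin, which stabilises the C3 convertase, had 20.9 ± 6.05 and 14.1 ± 7.47 FPKM. Cfd, for factor D, had 0.28 to 2.05 FPKM across LPS-ALI lungs and 0 to 4.93 with TMAO. Of 6 terminal components, only C6 and C7 were tested. C6 had 9.53 ± 7.57 and 8.03 ± 4.92 FPKM and C7 had 16.2 ± 8.07 and 17.5 ± 12.7.

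Among soluble regulators 4 of 9 genes were tested, and among membrane regulators 3 of 7. Serping1, for the C1 inhibitor, had 174 ± 75.3 FPKM (SD, n = 4) with LPS-ALI alone, against 182 ± 94.9 (SD, n = 5) with TMAO. Clu, for clusterin, which blocks the terminal complex, had 45.0 ± 20.0006 and 36.4 ± 17.8. The membrane regulators Cr1l, Cd55 and Cd59a had mean FPKM of 29.7, 9.74 and 2.63 across LPS-ALI lungs, against 32.5, 6.16 and 2.08 with TMAO.

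Of 9 genes listed as receptors 6 were tested. Among them C1qbp, a mostly mitochondrial protein that can bind C1q, had 32.1 ± 10.007 FPKM (SD, n = 4) with LPS-ALI alone, against 17.3 ± 7.99 (SD, n = 5) with TMAO. It was the 1 gene of the 21 with an unadjusted limma p under 0.05, at 0.0360 (adjusted p = 0.998), with a log2 difference of -0.95 ± 0.41 (SE), and the groups overlapped. Of all genes tested, 3.35% had such a p. Cd93, an endothelial and myeloid membrane protein once described as a C1q receptor, had 44.8 ± 29.1 and 77.0 ± 54.8 FPKM. Its log2 difference was 0.76 ± 0.60 (SE; limma adjusted p = 0.998). Calr, for calreticulin, had 162.7 ± 97.7 and 169 ± 104 FPKM.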

How the data were processed

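RNA from lung tissue of 9 mice was sequenced, and the deposited values are FPKM made by the authors, rounded to 2 decimals, with 1 column per library. Per the labels' protocols, RNA was depleted of ribosomal RNA before library construction. Per the submitters' processing notes, fastp, HISAT2, SAMtools and featureCounts were used with the build mm10. Versions, annotation, strand setting and gene lengths: not given in the sources used here.

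FPKM are not counts, so log2(FPKM + 1), a scale that understates changes of low genes, was tested with limma 3.58.1 in R 4.3.3. The fit used a mean-variance trend, two-sided tests and Benjamini-Hochberg adjustment over the 11817 genes that reached 1 FPKM in no fewer than 4 libraries. Groups and mouse numbers come from the titles. Ratios were tested by exact two-sided permutation of the 9 libraries. Coordinates and exon lengths come from GENCODE M21 on GRCm38, the assembly of mm10, and 52125 of 52381 genes matched.

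Library totals were not used here, so depth was estimated. FPKM times exon length was used for genes with 1 annotated transcript and a value in at most 5 libraries. Its peaks at 1 to 4 times a common unit gave the depths, and 44.8% to 58.9% of these values lay within 0.15 of a whole read, against 30% for values without steps. Estimated reads carry the error of these lengths, so no counting interval is given. The way of estimating depth was settled after a first try had missed visible peaks.

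The limma step was tested on simulated data. The 9 genes and all lists were chosen with earlier results of these data known. Of other complement genes, the 3 most abundant tested genes of each role were named. As alike in pattern, the 3 genes with the highest Pearson r were named for each of the 9, leaving out symbols that start with Gm and a digit or end with Rik. Some genes that these rules name are not reported here. Alternatives covered pseudocounts, filters, scaling, variance models, a replicate block and left-out libraries. Chosen after seeing the data were 2 of the 26 alternatives (median-of-ratios scaling combined with left-out libraries), the Cfb to C3 and C4b to C3 ratios, the counts of overlap and the background shares without X-coded libraries, the marker lists shown beside a gene, and the promoter stretches and patterns. No 2 libraries shared values for more than 63 genes. Python 3.11.15 was used for tables and figures.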

Additional observations from a re-analysis of the deposited data

Results flagged for a closer look

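The ratio of C3ar1 to C3 in TMAO lungs had 1 library far from the others of its group. TMAO replicate 5 had a ratio of 0.0237, and the other 4 TMAO lungs had 0.00511 to 0.00734. The gap to the nearest library was 0.880 of the whole range, above the critical value of 0.71 for 5 samples. C3 had 28.26 FPKM in that library, the lowest of the 9, and C3ar1 had 0.67 FPKM from an estimated 14 reads. In all, 26 groups of values were examined this way, of which chance alone flags about 1 in 20. This ratio was the 1 flag, against 1.3 expected by chance.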

How the results depend on the processing

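None of the 9 genes passed an adjusted p of 0.05 by limma under any of the 26 alternatives in which it was tested, and the smallest was 0.178, for Cfb under library weights. C3ar1 did not pass the filter after rescaling to TPM or with a mean FPKM of at least 5. Of 232 values under alternatives, 200 kept their direction and 32 did not. Part of the 200 was fixed in advance. A gene's log2 difference cannot change with other gene filters, no variance trend, robust variance estimates or summing rows that share a symbol. The log2 difference turned to 0.042 for C3, 0.16 for C1qa and 0.0141 for C1qc under median-of-ratios scaling, and to 0.078 for C3 and 0.16 for C1qa under quantile normalization. For C1qa it was 0.0423 without mitochondrial genes, 0.0012 with library weights and 0.06 without LPS-ALI replicate 4 and TMAO replicate 5 together. Hc was -0.53 with library weights, -1.23 without X-coded libraries and -0.15 without LPS-ALI replicate 4 and TMAO replicate 5. C3ar1 was -0.0069 without X-coded libraries. In 2 alternatives added after seeing the data, median-of-ratios scaling without X-coded libraries gave 0.0556 for C1qa, 0.0327 for C1qb and -0.95 for Hc, with 1 gene past the threshold, and that scaling without TMAO replicate 5 gave 0.31 for C3, 0.12 for C1qa and 0.08 for C4b, with 0 genes past it. The cause was not tested. Leaving out 1 library at a time gave -0.62 to 0.39 for C3, -0.22 to 0.20 for C1qa, -0.45 to -0.22 for C1qb, -0.38 to 0.0277 for C1qc and -0.85 to 0.19 for C4b. It gave -0.84 to -0.14 for Cfb, -0.49 to 0.92 for Hc, -0.061 to 0.17 for C3ar1 and -0.56 to -0.12 for C5ar1. The C3ar1 to C3 log2 ratio difference ran from -0.022 to 0.65 in the same way, and the other ratios kept their direction, at -0.43 to -0.14 for C1qb to C1qa, -0.20 to -0.09 for C1qc to C1qa and -0.79 to -0.25 for C5ar1 to C3ar1. The count of genes past the threshold was 51 under library weights and 0 to 3 with 1 library left out, at 1 when LPS-ALI replicate 3 was dropped and 3 when TMAO replicate 4 was. Genes at an unadjusted p under 0.05 numbered 396, of which 50 were higher with TMAO, and 160 to 1634 over the alternatives. The split was 358 higher and 434 lower under median-of-ratios scaling, 441 and 450 under quantile normalization, and 345 lower of 849 when TMAO replicate 5 was dropped. The labels do not state that mouse numbers pair the animals. The correlation of deviations between same-numbered mice was -0.13 to 0.06, and 1 of 8 samples correlated best with its own number. So few samples cannot settle whether the numbers pair. With the mouse number as a replicate block, which drops TMAO replicate 5, the differences were 0.39 for C3, 0.20 for C1qa, 0.0277 for C1qc and 0.16 for C4b, the same as on dropping that library without a block, 0 genes passed the threshold, and 742 had an unadjusted p under 0.05. Depth limits C3ar1 most.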

Other observations

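The level of Hc was also set against the alveolar type 2 score by subtraction, a step chosen after the values were seen and given without a test. On the scale relative to the median gene, Hc spanned 4.15 log2 units over the 9 libraries, and Hc minus the score spanned 1.24. The difference was -1.49 and -1.70 in LPS-ALI replicates 1 and 2, -2.73 and -2.50 in the X-coded LPS-ALI replicates 3 and 4, and -2.09 to -1.77 in the 5 TMAO lungs. For C3 the same subtraction changed the span from 2.22 to 1.97, with 0.64 in LPS-ALI replicate 4 and -1.33 in TMAO replicate 5 at the ends.

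C4b to C3 ratios were 0.128 to 0.184 in the 5 TMAO lungs. In LPS-ALI replicates 1, 2 and 4 they were 0.0847, 0.130 and 0.149, and in LPS-ALI replicate 3 the ratio was 0.678.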
